A study of Homo sapiens with 14 samples.

Results

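NF-kappaB is a family of transcription factors that sits at the centre of inflammatory gene control. Its components, together with known target genes that encode chemokines, cytokines and adhesion molecules, were followed through 14 human neuroblastoma cell lines. The members were taken from a list of 36 gene symbols, of which 34 were measured among the 20049 symbols of the count table. The expression of IL1A and CSF2 was not analysed here.

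Neuroblastoma is a childhood tumour of the sympathetic nervous system, and the lines are established, untreated cultures in standard medium with serum. They were SK-N-SH and SH-SY5Y, IMR32 and IMR5-75, GI-ME-N, LS, SK-N-AS, SK-N-FI, Lan-6, NGP, SK-N-BE(2)C, NBL-S, SK-N-DZ and CLB-GA, with 1 RNA-seq library each. By textbook knowledge, SH-SY5Y is a subclone of SK-N-SH and IMR5-75 of IMR32. The labels set no group apart by treatment, genotype or class, so a level in a line has no replicate, and relations were tested across lines.

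In resting cells, dimers of Rel proteins are held in the cytoplasm by IkappaB proteins. Signals from receptors for tumour necrosis factor or interleukin 1 pass through TRAF adaptors to the IKK kinases, which mark IkappaB for degradation, and the freed dimers enter the nucleus. Targets include the inhibitors themselves, which ends the response. Neuroblastoma lines are known to occur in an adrenergic, neuron-like state and in a mesenchymal state, and the second is known for higher inflammatory and innate immune gene activity.

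Rel dimers bind short DNA motifs of the kind searched here, GGANTTNCC, where N is any base, on both strands. Matches were counted in RefSeq promoter windows of GRCh38.p14, which run from 250 bases before to 50 bases after a gene's start. Of the 36 listed genes, IL1A and CSF2 included, 29 had an entry and 16 of these had a match in at least 1 window. By window, 17 of 39 windows of the listed genes held a match (43.6%), against 1499 of 35114 windows of all genes (4.27%). The letters of the motif were chosen after these sequences had been seen, and a match is a description, not evidence of binding. Shown first are the stretches of chemokine and cytokine genes whose highest line lay 10 times or more above the median line (CXCL8 and CXCL2) or whose median line had 0 counts (IL6), with CXCL1 as the close paralog of CXCL2. NFKBIZ, NFKB1, ICAM1 and VCAM1 follow, added after their values were seen. Each is written along the gene's own strand, with the match in capitals.
CXCL8: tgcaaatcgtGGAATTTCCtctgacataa
CXCL2: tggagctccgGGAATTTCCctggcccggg
CXCL1: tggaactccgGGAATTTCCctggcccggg
IL6: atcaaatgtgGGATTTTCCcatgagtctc
NFKBIZ: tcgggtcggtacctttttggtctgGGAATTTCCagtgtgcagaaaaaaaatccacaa
NFKB1: gacgtcagtgGGAATTTCCagccaggaag
ICAM1: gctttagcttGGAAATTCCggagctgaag
VCAM1: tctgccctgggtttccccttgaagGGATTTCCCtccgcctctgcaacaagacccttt

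The stretch of CXCL8 lies at chr4:73740468-73740496 on the plus strand, and its match begins 91 bases before the RefSeq start. That of CXCL2 is at chr4:74099254-74099282 on the minus strand, with the match 77 bases before the RefSeq start and inside an exon of another transcript model of GENCODE 29. CXCL1 has its stretch at chr4:73869305-73869333 on the plus strand, 78 bases before its start. Over the 57 bases around the match, CXCL1 and CXCL2 have 48 bases in common. The IL6 stretch is at chr7:22727118-22727146 on the plus strand, with the match 72 bases before the start. NFKBIZ has its stretch at chr3:101827744-101827800 (plus strand, 222 bases before the start), and NFKB1 at chr4:102501301-102501329 (plus strand, 48 bases before the start). The ICAM1 stretch, at chr19:10270924-10270952 on the plus strand, matches on the opposite strand, 186 bases before the start, inside an exon of another GENCODE 29 model. VCAM1 follows at chr1:100719657-100719713 on the plus strand, 61 bases before its start. The windows of CXCL12, IL11, IL1B, TNF and PTGS2 held no match to these letters, which says nothing about the factor.

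The smallest library, Lan-6, held 35856642 counts and the largest, LS, 58644013. Levels are given as CPM, counts scaled to a common total with TMM factors. Where a gene had 0 counts, up to 3 remain possible, or 0.0514 CPM in LS and 0.102 CPM in Lan-6. Such limits and the intervals further on cover counting error only. Over 7697 genes of stable level, the deviation of Lan-6 from the other libraries followed GC content with a Spearman rho of 0.676 and transcript length with -0.339. LS, at -0.406 and 0.182, went the opposite way, GI-ME-N was at 0.280 and -0.296, and SK-N-SH at 0.043 and -0.109. Summed neuroblast markers had a median of 1327 CPM and a maximum of 5023 CPM in CLB-GA, while SK-N-SH had 215 and GI-ME-N 444 CPM. Summed fibroblast markers ran the other way, since SK-N-SH had 14445 and GI-ME-N 12025 CPM against a median of 97.4 CPM. Leukocyte markers summed to 488 CPM in SK-N-AS against a median of 10.8 CPM, nearly all of it from PTPRC at 470 CPM and CD68 at 17.5 CPM, while CD3E and AIF1 were at 0 counts in that line. The sum was also above the median in SK-N-SH (48.5 CPM, of which CD68 46.9), LS (47.7 CPM, of which LYZ 42.1) and GI-ME-N (33.3 CPM, of which CD68 29.4), and its part in the results was not tested. In bulk RNA, fewer cells of a state and less RNA per cell cannot be told apart.

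Some of the factors and their regulators, and none of the inflammatory products, were at 1 CPM or more in every line. Of the 34 genes, 11 (32.4%) were at 1 CPM or more in all 14 lines, against 52.8% of all symbols. These 11 were 4 of 5 Rel subunits, 4 of 7 IkappaB proteins and feedback inhibitors, and 3 of 7 kinases and adaptors. None of the 6 chemokines, 6 cytokines and 3 adhesion or prostaglandin genes reached that level in every line. At the other end, CXCL1, IL1B and TNF stayed under 1 CPM in all lines. For the 11 genes the median SD of log2 CPM over lines was 0.65, the same as the 0.65 of all 10589 genes so detected, from 0.50 for CHUK to 1.35 for NFKB2.

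**Figure D1:**
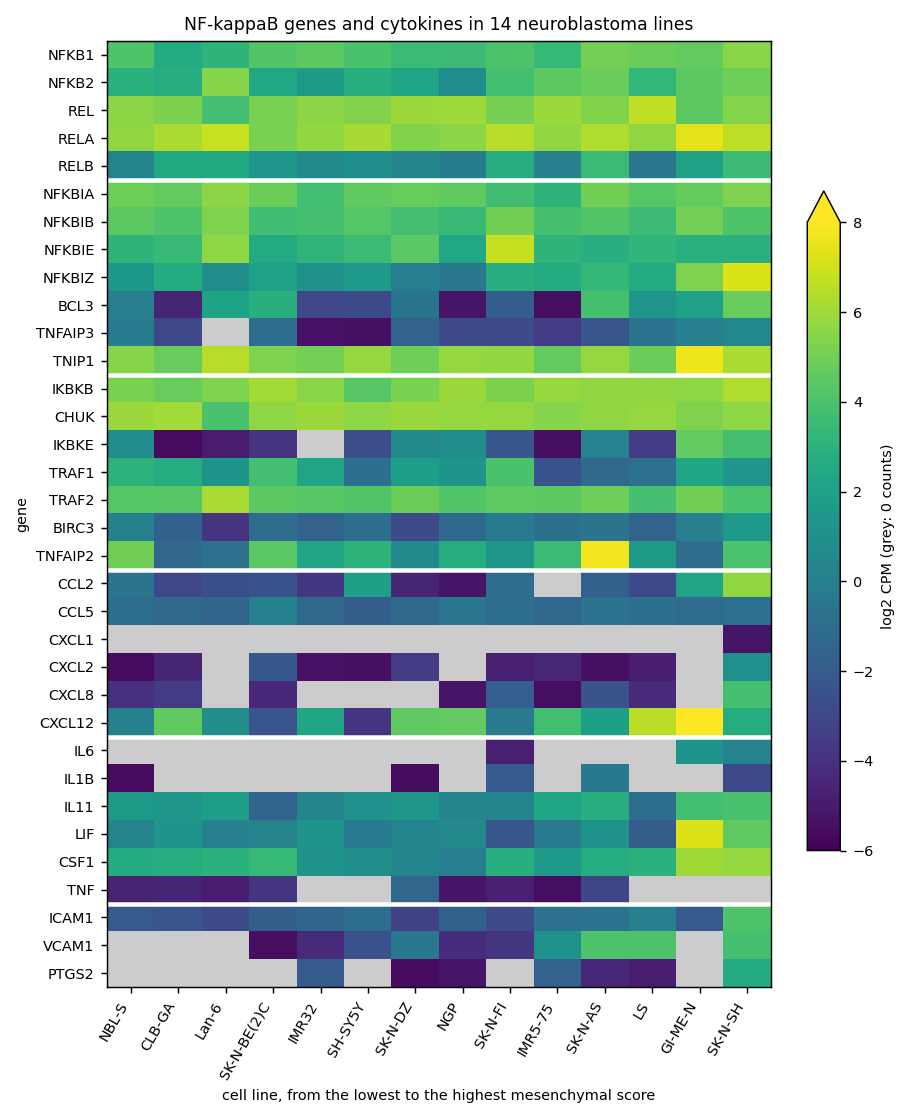
Level of each of the 34 genes (rows, in the order of their roles) in each of the 14 lines (columns, ordered by mesenchymal score), as log2 CPM on a colour scale, with grey for 0 counts. Rows of the upper 3 blocks are mostly filled. Below them, LIF, CSF1 and IL11 are brightest in the 2 columns at the right, GI-ME-N and SK-N-SH. CCL2, CXCL8, ICAM1 and PTGS2 are brightest in SK-N-SH, CXCL12 in GI-ME-N, and VCAM1 in SK-N-AS, LS and SK-N-SH. CXCL2, CXCL8, VCAM1 and PTGS2 are grey in GI-ME-N.

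Among the Rel subunits, RELA, the main activating subunit of the canonical pathway, stood above the others. Divided by the median length of the coding transcripts, RELA was the highest of the 5 subunits in 14 of 14 lines, and also when the longest transcript was used. Its level per kb was a median of 11.1 times that of NFKB1 with the first length and 4.705 times with the second. In CPM, RELA ranged from 36.8 in SK-N-BE(2)C through a median of 62.4 to 173 in GI-ME-N, with Lan-6 next at 113. Of the 14 libraries these have the largest positive GC trends, and with the GC and length trend removed RELA was 107 CPM in GI-ME-N, 102 CPM in SK-N-FI and 47.2 CPM in Lan-6.

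NFKB1 encodes the precursor of the RELA partner, and ranged from 6.08 CPM in CLB-GA through a median of 17.2 CPM to 46.4 CPM in SK-N-SH. NFKB2, precursor of the subunit used by the non-canonical pathway, ranged more widely, from 1.75 CPM in NGP through 8.67 CPM to 43.9 CPM in Lan-6. RELB, its usual partner, reached 12.3 CPM in SK-N-SH, closely followed by SK-N-AS with 11.8 CPM, next to a median of 2.30 CPM and 0.737 CPM in LS. SK-N-SH was thus the highest line for NFKB1 and RELB and the next highest for NFKB2 at 30.5 CPM. REL, prominent in lymphocytes, ran differently. It was highest in LS at 101 CPM and lowest in Lan-6 at 14.2 CPM, with GI-ME-N at 22.3 CPM and a median of 41.7 CPM. Removing the GC and length trend raised the value of Lan-6 to 32.7 CPM.

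The first of the classical inhibitors was NFKBIA, which retains RELA dimers in the cytoplasm. It ranged from 8.57 CPM in IMR5-75 through a median of 25.4 CPM to 48.2 CPM in Lan-6. NFKBIB, a related retainer, ranged from 11.2 CPM in NGP to 39.7 CPM in Lan-6. Once the trend was removed, Lan-6 had 28.2 CPM of NFKBIA, below 35.7 CPM in SK-N-SH, and 14.1 CPM of NFKBIB, where SK-N-FI was highest at 38.8 CPM. NFKBIE was apart from both, since SK-N-FI had 110 CPM and Lan-6 49.5 CPM while the median line had 8.79 CPM. The SK-N-FI value was 2.22 times that of Lan-6, and 3.58 times with the trend removed.

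NFKBIZ, a co-activator required for secondary inflammatory genes such as IL6, reached 146 CPM in SK-N-SH, followed by GI-ME-N with 39.7 CPM. The other 12 lines lay between 0.753 CPM in NGP and 10.0 CPM in SK-N-AS. Neither of the 2 high lines overlapped them, which is a description only, since the share of all genes doing so was not counted. BCL3, a nuclear partner of the NFKB1 and NFKB2 products, had 26.5 CPM in SK-N-SH, then 14.4 CPM in SK-N-AS, with a median of 0.839 CPM and 0.0222 CPM in IMR5-75. TNFAIP3, a ubiquitin-editing enzyme that switches the pathway off, was scarce everywhere. Its highest values were 1.43 CPM in SK-N-SH (52 counts) and 1.02 CPM in GI-ME-N (33 counts), and no other line exceeded 0.849 CPM. TNIP1, which works with it, was abundant in all lines, from 25.0 CPM in IMR5-75 through 48.7 CPM to 202 CPM in GI-ME-N.

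The catalytic IKK kinases were among the most even genes. IKBKB was lowest in SH-SY5Y (20.3 CPM) and highest in SK-N-SH (79.2 CPM), and CHUK from 16.1 CPM in Lan-6 to 67.2 CPM in CLB-GA. IKBKE, an inducible relative that also acts in interferon signalling, instead had 25.0 CPM in GI-ME-N, 14.5 CPM in SK-N-SH, and no more than 1.86 CPM in the other 12 lines. TRAF2, an adaptor of receptor complexes, stood at 73.6 CPM in Lan-6 against a median of 21.4 CPM, and at 30.3 CPM in that line when the GC and length trend was removed. TRAF1, which pairs with it, was highest in SK-N-FI at 15.5 CPM and SK-N-BE(2)C at 14.0 CPM. BIRC3, a ubiquitin ligase of the same complexes, exceeded 2 CPM in SK-N-SH alone, at 2.83 CPM. TNFAIP2, a gene induced by tumour necrosis factor, reached 216 CPM in SK-N-AS, 7.03 times the next line, NBL-S, at 30.8 CPM. SK-N-AS is also the line with the high PTPRC count, whose part in these values was not tested.

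Of the 6 chemokines, CCL2, CXCL8 and CXCL2 were highest in SK-N-SH. CCL2, which attracts monocytes, reached 51.2 CPM in SK-N-SH, followed by 4.59 CPM for GI-ME-N and 3.69 CPM for SH-SY5Y, and no more than 0.663 CPM in the other 11 lines. CXCL8, which attracts neutrophils, had 531 counts (14.6 CPM) in SK-N-SH, while 5 lines had 0 counts and the remaining 8 lines between 1 and 16 counts. CXCL2, another neutrophil attractant, had 74 counts (2.03 CPM) in SK-N-SH and no more than 10 counts elsewhere. CXCL1 had 1 count in SK-N-SH and 0 in the other 13 lines. Because CXCL1 and CXCL2 are near-identical paralogs, the division of reads between them is uncertain. CCL5, an attractant of T cells, was low and even, with 0.275 CPM for SH-SY5Y as the lowest and 1.12 CPM for SK-N-BE(2)C as the highest value.

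CXCL12, a chemokine made constitutively by stromal cells, had a pattern of its own. GI-ME-N reached 714 CPM and LS 93.1 CPM, and the median was 5.63 CPM. SK-N-SH was near that median at 6.31 CPM, and SH-SY5Y was lowest at 0.0688 CPM from 3 counts.

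Among the cytokines, LIF, a member of the interleukin 6 family, had 156 CPM in GI-ME-N, then 23.3 CPM in SK-N-SH, and the other 12 lines ran from 0.217 to 2.40 CPM. CSF1, the growth factor of macrophages, had 64.0 CPM in GI-ME-N, with 55.2 CPM for SK-N-SH, and 0.995 to 10.2 CPM in the others. IL11, of the same family as LIF, had 16.0 CPM in SK-N-SH, with 13.6 CPM for GI-ME-N, above the 6.92 CPM of SK-N-AS. In all 3 genes the 2 lines did not overlap the others, which is a description only, since the share of all genes doing so was not counted. IL6 itself, a main inflammatory cytokine, was far scarcer, with 77 counts (2.39 CPM) in GI-ME-N, 44 counts (1.21 CPM) in SK-N-SH, 2 counts in SK-N-FI and 0 in the other 11 lines. The classical initiating cytokines were barely detected. IL1B had 34 counts (0.803 CPM) in SK-N-AS at most, and TNF 18 counts (0.385 CPM) in SK-N-DZ, with 0 counts of TNF in both GI-ME-N and SK-N-SH.

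ICAM1, an adhesion molecule bound by leukocyte integrins, had 16.7 CPM in SK-N-SH, LS following with 1.08 CPM, and at most 0.637 CPM in the other 12 lines. GI-ME-N, at 0.248 CPM, was not among the high lines. VCAM1, an adhesion molecule for lymphocytes, was at 17.3 CPM in SK-N-AS, 17.0 CPM in LS, 14.6 CPM in SK-N-SH, then 2.33 CPM in IMR5-75, with 0 counts in 4 lines that included GI-ME-N. PTGS2, the inducible enzyme of prostaglandin synthesis, had 222 counts (6.09 CPM) in SK-N-SH, at most 15 counts in any other line and 0 in 7.

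Counted by the line in which each was highest, 13 of the 31 detected genes (1 CPM or more in at least 1 line) peaked in SK-N-SH, against 8.61% of all 17501 detected genes. The 13 were NFKB1, RELB, NFKBIZ, BCL3, TNFAIP3, IKBKB, BIRC3, CCL2, CXCL2, CXCL8, IL11, ICAM1 and PTGS2. The count was 10 to 16 under other detection limits or with the GC and length trend removed. GI-ME-N held the peak of 7, which were RELA, TNIP1, IKBKE, CXCL12, IL6, LIF and CSF1, against 14.4% of all genes. Lan-6 held 4 (NFKB2, NFKBIA, NFKBIB and TRAF2) against 17.6% of all genes, and 0 once the trend was removed. No gene peaked in IMR32, IMR5-75, NBL-S, NGP, SK-N-DZ or SH-SY5Y. Of the 31, 26 (83.9%) lay above their own median over lines in SK-N-SH, where 48.6% of all detected genes did. The share was 74.2% against 50.5% in SK-N-AS, 67.7% against 47.7% in GI-ME-N and 25.8% against 50% in IMR32. In 8 genes both GI-ME-N and SK-N-SH lay above all other 12 lines, namely NFKBIZ, TNFAIP3, IKBKE, CCL2, IL6, IL11, LIF and CSF1. CCL2 and TNFAIP3 did not under scaling to the library total alone, which left 6 genes, nor once the trend was removed, where BIRC3 and TNIP1 took their place. The share of all genes with both lines above the others was not counted, so the 8 are a description only.

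The first comparison asked which of these genes follow the mesenchymal state. A mesenchymal score, the mean centred log2 CPM of 15 markers with no NF-kappaB gene among them, was 4.98 in SK-N-SH, 4.37 in GI-ME-N, 1.55 in LS and 1.14 in SK-N-AS, and at most -0.25 in the other 10 lines. Slopes on the score were fitted over 12 lines, leaving out both subclones, for 16301 genes that passed a filter of 1 CPM in at least 2 of these lines. The p-values measure the spread between single libraries, which includes any technical difference between them.

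Of the 27 genes of the list that passed the filter, 7 rose with the score and none fell by edgeR's quasi-likelihood test with Benjamini-Hochberg adjustment, next to 3.92% of all genes that rose. Their median slope was 0.74 log2 per SD of the score, against -0.02 over all genes. IL6 had a slope of 3.35 (SE 0.46, edgeR adjusted p = 0.000992), fitted on counts of which 9 of 12 were 0. CCL2 rose by 2.45 log2 per SD (SE 0.40, edgeR adjusted p = 0.00285) and LIF by 2.21 (SE 0.38, edgeR adjusted p = 0.00383). ICAM1 rose by 1.92 (SE 0.30, edgeR adjusted p = 0.00206) and NFKBIZ by 1.77 (SE 0.26, edgeR adjusted p = 0.00131). For CSF1 the slope was 1.20 (SE 0.27, edgeR adjusted p = 0.0167) and for CXCL12 2.18 (SE 0.59, edgeR adjusted p = 0.0443). The 7 are secreted factors, an adhesion molecule and a nuclear co-activator, and no Rel subunit, kinase or adaptor was among them. That holds for edgeR's fit over these 12 lines only. The kinase IKBKE was called by edgeR with all 14 lines and without NBL-S, and by limma and DESeq2. DESeq2 also called the subunit NFKB1. CCL2 and IL6 passed the filter only through GI-ME-N and SK-N-SH, the lines with the highest scores, and ICAM1 only through SK-N-SH and LS. Their slopes were therefore largely set by the filter and are given as a description, as are the count of 7 and the median slope.

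**Figure D2:**
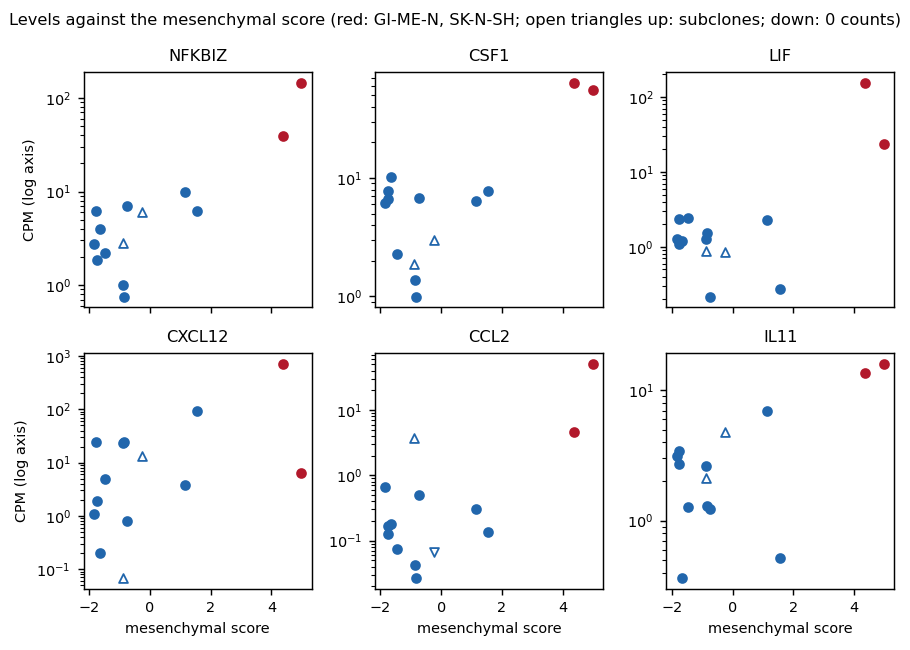
CPM on a log axis against the mesenchymal score for NFKBIZ, CSF1, LIF, CXCL12, CCL2 and IL11, with 1 point per line; red points are GI-ME-N and SK-N-SH, open upward triangles the subclones and a downward triangle 0 counts, drawn at 3 counts. In each panel but that of CXCL12 the red points lie above all others, and the other 12 lines all have scores under 2.

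Several of the genes missed the threshold with slopes of similar size. VCAM1 had a slope of 5.15 (SE 1.61, edgeR adjusted p = 0.0787), IKBKE 1.90 (SE 0.55, edgeR adjusted p = 0.0586) and IL11 1.03 (SE 0.30, edgeR adjusted p = 0.0580). VCAM1 passed the filter only through SK-N-SH, LS and SK-N-AS, all lines with high scores, so its slope is a description. RELA at 0.37 and NFKB1 at 0.58 had edgeR adjusted p-values of 0.213 and 0.0853. CXCL8, CXCL2, PTGS2, CCL5, CXCL1, IL1B and TNF did not pass the filter, the first 3 because SK-N-SH alone was above 1 CPM.

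The calls rested on the 2 lines with the highest scores. Without both, 50 genes were called, 1 of them from the list (VCAM1, slope 3.92, edgeR adjusted p = 0.0167), NFKBIZ had a slope of 0.49, CSF1 of 0.03 and LIF of -0.20. VCAM1 then passed the filter only through LS and SK-N-AS, which had the highest scores left. Its slope was therefore largely set by the filter and is given as a description. With GI-ME-N alone left out, VCAM1 passed only through these lines and SK-N-SH, and the same limit holds. Without GI-ME-N, 3 genes were called, namely ICAM1, NFKBIZ and VCAM1, and 407 genes in all against 1055 before. Without SK-N-SH, 3 were called, namely CXCL12, LIF and NFKBIZ, and 545 in all. CCL2 and IL6 could not be tested without either line, because they then missed the filter, and ICAM1 could not without SK-N-SH or LS. NFKBIZ was called whichever of the 12 lines was left out. CXCL12 kept its call without CLB-GA, SK-N-AS or SK-N-SH and lost it without any of the other 9 lines. Leaving out Lan-6 raised the calls to 1651 genes, 8 of them from the list. With MYCN as a covariate, edgeR called 0 genes of the list at the adjusted threshold, with 7 rising and 1 falling at an unadjusted p under 0.05, and NFKBIZ had a slope of 1.31 (SE 0.39, edgeR adjusted p = 0.0998). Limma called 6 genes of the list on the deposited log2 values, 5 on log2 CPM and 5 with the trend removed. ICAM1 and CXCL12 missed the threshold in all 3 limma fits, LIF in the last 2 (adjusted p = 0.0574 and 0.0642), and IL6 with the DESeq2 Wald test (adjusted p = 0.07). IKBKE gained a call in all 3 limma fits, and IKBKE, NFKB1, IL11 and VCAM1 gained one with the DESeq2 Wald test.

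**Figure D3:**
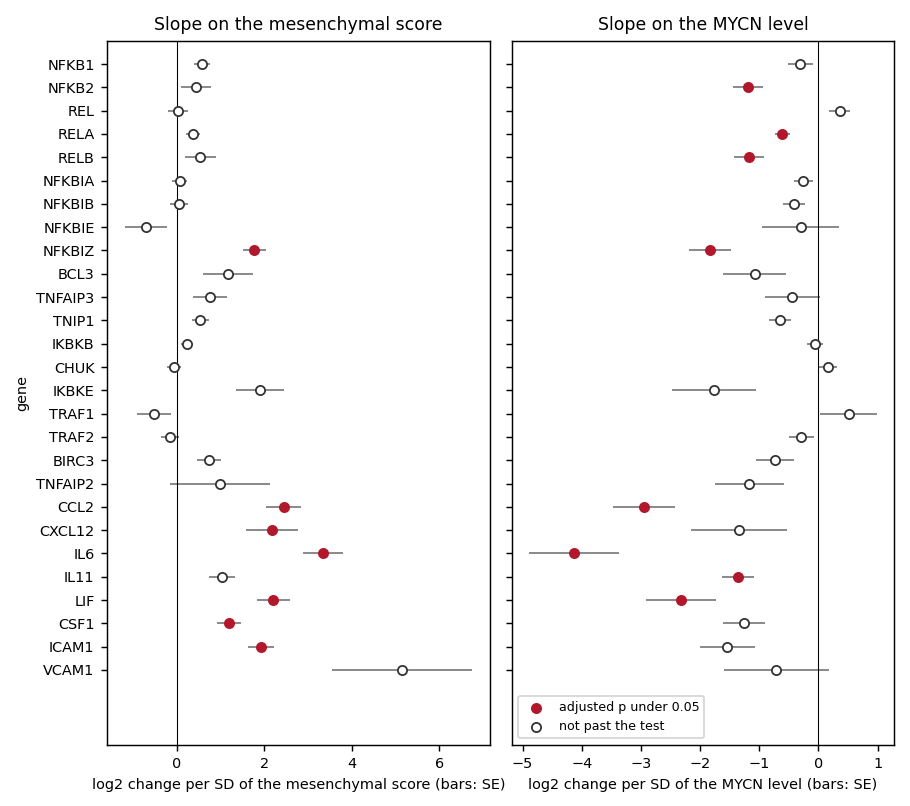
Fitted slope of each of the 27 tested genes, as log2 change per SD of the mesenchymal score (left) and of the MYCN level (right), over 12 lines; bars are standard errors and red points passed edgeR's test at an adjusted p of 0.05. On the left the 7 red points are NFKBIZ and products such as CCL2, IL6 and LIF, and on the right 8 red points, RELA, RELB and NFKB2 among them, lie below 0.

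MYCN, the oncogene amplified in a share of neuroblastomas, was taken next. Its level ran from 0.384 CPM in SK-N-SH, 0.496 in SK-N-AS and 1.33 in GI-ME-N to 2245 CPM in SK-N-BE(2)C. It was not independent of the first measure, with a Pearson r of -0.640 and a Spearman rho of -0.427 between MYCN and the mesenchymal score over the 12 lines, which share their libraries. Of the 27 genes, 8 fell with MYCN and none rose by edgeR's quasi-likelihood test, next to 2.99% of 16315 genes that fell.

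In contrast to edgeR's calls in the first scan, 3 Rel subunits were among the 8. RELA fell by 0.61 log2 per SD of the MYCN level (SE 0.13, edgeR adjusted p = 0.0300), NFKB2 by 1.19 (SE 0.26, edgeR adjusted p = 0.0318) and RELB by 1.17 (SE 0.25, edgeR adjusted p = 0.0318). NFKB1 had a slope of -0.31 (edgeR adjusted p = 0.366) and REL one of 0.36 (edgeR adjusted p = 0.220). The others were CCL2 at -2.95 (SE 0.53, edgeR adjusted p = 0.0242), IL6 at -4.13 (SE 0.76, edgeR adjusted p = 0.0250), NFKBIZ at -1.83 (SE 0.36, edgeR adjusted p = 0.0257), IL11 at -1.36 (SE 0.27, edgeR adjusted p = 0.0264) and LIF at -2.32 (SE 0.59, edgeR adjusted p = 0.0457). CCL2 and IL6 passed the filter only through GI-ME-N and SK-N-SH, which are among the lines with the least MYCN. Their slopes were therefore largely set by the filter and are given as a description, as is the count of 8. Whether the slopes on the 2 levels differ was not tested.

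Leaving out single lines often ended these calls. Without GI-ME-N or SK-N-SH, CCL2 and IL6 missed the filter and could not be tested. Leaving out GI-ME-N, IMR32, NGP or SK-N-SH left 0 of the 8, with 36, 4, 5 and 5 genes called in all against 687 before, although 9 to 12 of the list had an unadjusted p under 0.05 and a negative slope in each of these fits. Leaving out SK-N-DZ left IL11 alone, with 44 genes called in all, and leaving out NBL-S left CCL2, IL11, IL6 and NFKBIZ, with 217. Without SK-N-BE(2)C 322 genes were called, and without SK-N-AS 1572, of which 11 were from the list. With the mesenchymal score as a covariate edgeR called 0 of the list, 6 having a negative slope at an unadjusted p under 0.05, and the slope of NFKBIZ was -0.72 (edgeR adjusted p = 0.372). Without the lines farthest from the median MYCN level, SK-N-SH and SK-N-AS, RELA had a slope of -0.69 (SE 0.10, edgeR adjusted p = 0.00810) and NFKB2 one of -1.11 (SE 0.28, edgeR adjusted p = 0.0373). RELA and NFKB2 are high in GI-ME-N and Lan-6, whose GC trends are positive, while LS has the opposite trend, and limma on values with the trends removed called 1 gene of the list, NFKB2.

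**Figure D4:**
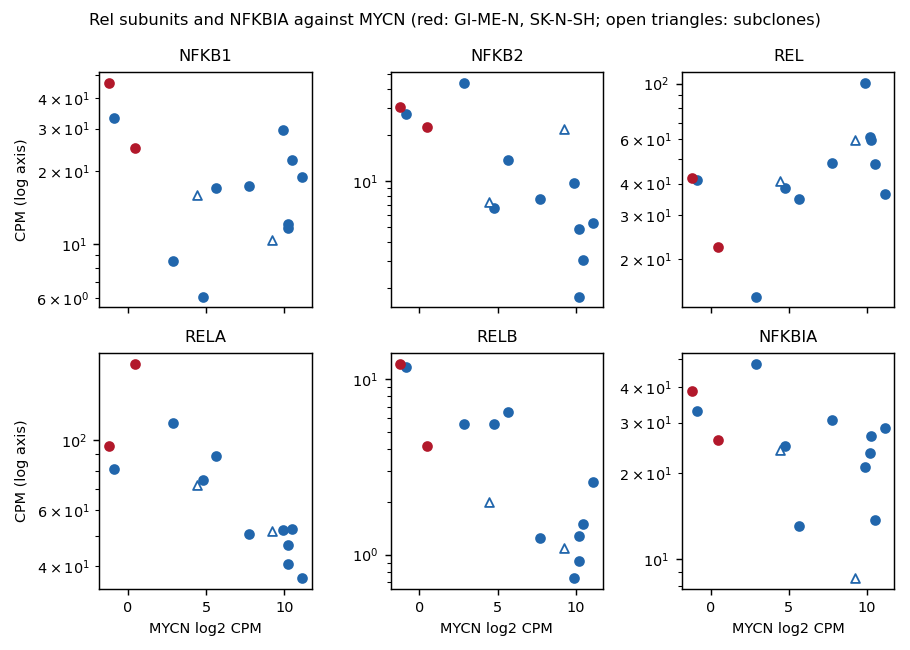
CPM on a log axis against MYCN log2 CPM for the 5 Rel subunits and NFKBIA, with 1 point per line; red points are GI-ME-N and SK-N-SH and open triangles the subclones. RELA, RELB and NFKB2 tend to be lower toward the right, where the lines with the most MYCN lie, whereas REL and NFKBIA show no fall past the test. The subclone IMR5-75, with 598 CPM of MYCN and left out of the fit, is an exception for NFKB2 at 21.9 CPM.

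MHC class I genes, which present peptides to T cells, have NF-kappaB motifs in their promoters as known background, and their level was the next measure. The score over 11 genes of class I presentation was highest in SK-N-SH at 3.79 and SK-N-FI at 2.60, and lowest in CLB-GA at -2.44. It was not independent of the first 2 measures. Over the 12 lines its Pearson r was 0.610 with the mesenchymal score and -0.596 with MYCN (Spearman rho 0.685 and -0.448). By edgeR's quasi-likelihood test 0 of 27 genes of the list, and 0% of 16305 genes, followed the score. At an unadjusted p under 0.05 there were 2023 genes, 9 of them from the list and all 9 rising, DESeq2 called 989, limma on log2 CPM called 14 and limma on the deposited log2 values called 0. DESeq2's calls included 7 of the list, which were BCL3, CCL2, CSF1, ICAM1, LIF, NFKB2 and NFKBIZ. The slopes with the smallest edgeR adjusted p were 1.66 for ICAM1 (adjusted p = 0.131), 2.30 for CCL2 (0.133), 1.61 for NFKBIZ (0.140) and 2.18 for BCL3 (0.157). Of these, CCL2 passed the filter only through GI-ME-N and SK-N-SH, and ICAM1 only through SK-N-SH and LS. SK-N-SH had the highest score, so the slopes of CCL2 and ICAM1 were largely set by the filter and are given as a description. The same limit holds for the counts of 9 and 7, which include them.

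The rest of the pathway was read from lists of genes that are not members. Among upstream receptors 4 of 10 tested rose with the mesenchymal score by edgeR's test, against 3.92% of all genes, and none fell. They were IL1R1, the interleukin 1 receptor, with a slope of 2.81, TNFRSF12A, the receptor of the cytokine TWEAK, with 2.54, TNFRSF1A, the main receptor of tumour necrosis factor, with 1.52, and IL1RAP, named after its value was seen, with 1.23. IL1R1 had 53.6 CPM in GI-ME-N, with 32.9 CPM for SK-N-SH, against a median of 0.267 CPM, and the gene of its ligand, IL1B, had 0 and 5 counts in these lines. Among 23 adaptors, kinases and ubiquitin enzymes 1 rose, a share near that of all genes. It was MAP3K14, the kinase of the non-canonical pathway, with a slope of 0.92 and 177 CPM in GI-ME-N against a median of 13.9 CPM. Scaled with DESeq2 size factors, MAP3K14 was 181 CPM in GI-ME-N, 30.3 CPM in Lan-6 and 27.2 CPM in SK-N-SH. Fits without single lines were not examined for the genes of these lists. Of 14 other known targets 8 were tested and 4 rose, namely PLAU at 3.09, GADD45B at 2.55, PTX3 at 2.31 and, named after its value was seen, IL32 at 1.69. Receptors for the cytokines of the list gave 2 of 9, OSMR at 3.16 and IL6R at 1.21. With MYCN, 3 receptors fell (IL1R1, TNFRSF12A and IL1RAP, at -2.93, -2.51 and -1.09) and 2 of the adaptor list (RBCK1 at -0.82 and IKBKG at -0.69), and 0 of the other 2 lists, against 2.99% of all genes. IL1R1 passed the filter only through GI-ME-N and SK-N-SH, and IL32 only through SK-N-SH and SK-N-AS. The slopes of IL1R1 on both levels and that of IL32 were therefore largely set by the filter and are given as a description, as are the counts that include them. CXCL6 and CCR2 had 0 counts in all 14 libraries.

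The next comparison set SK-N-SH beside its subclone SH-SY5Y. With 1 library each there is no test, and a gene was counted when the CPM differed by over 4-fold. Of 30 genes of the list at 1 CPM or more in either line, 19 were higher in SK-N-SH, against 9.92% of 15062 genes, and 0 were lower. The median log2 ratio was 2.77 for these genes and 0.00 for all genes. Many of the 19, such as BCL3, IKBKE, CXCL8 and VCAM1, were under 1 CPM in SH-SY5Y. They entered the comparison only through SK-N-SH, the line where they are high. The count of 19, the 0 lower and the median ratio were therefore partly set by this filter and are given as a description. Summed neuroblast markers were 2277 CPM in SH-SY5Y and 215 CPM in SK-N-SH, and fibroblast markers 169 and 14445 CPM, and their part in the difference was not tested.

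The 19 genes included chemokines, cytokines, adhesion genes, inhibitors and kinases. CXCL8 was at least 212-fold higher, PTGS2 at least 88.5-fold and IL6 at least 17.5-fold, since SH-SY5Y had 0 counts and was set to 3. BCL3 was 192-fold higher (26.5 against 0.138 CPM), IKBKE 90.2-fold (14.5 against 0.161 CPM), VCAM1 79.7-fold (14.6 against 0.184 CPM) and NFKBIZ 51.3-fold (146 against 2.85 CPM). CXCL12, with 3 counts in SH-SY5Y, had a ratio of 91.7 (exact binomial 95% interval 31.0 to 448), and CXCL2, with 1 count, a ratio of 88.5 (15.4 to 3543). TNFAIP3, also with 1 count, had a ratio of 62.2 (10.7 to 2504). CCL2 differed less, by 13.9-fold, as it was 3.69 CPM in the subclone. RELB was 6.15-fold and NFKB2 4.21-fold higher, while RELA differed by 1.33-fold, NFKBIA by 1.62-fold, REL by 1.03-fold, and CHUK had a ratio of 0.988.

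**Figure D5:**
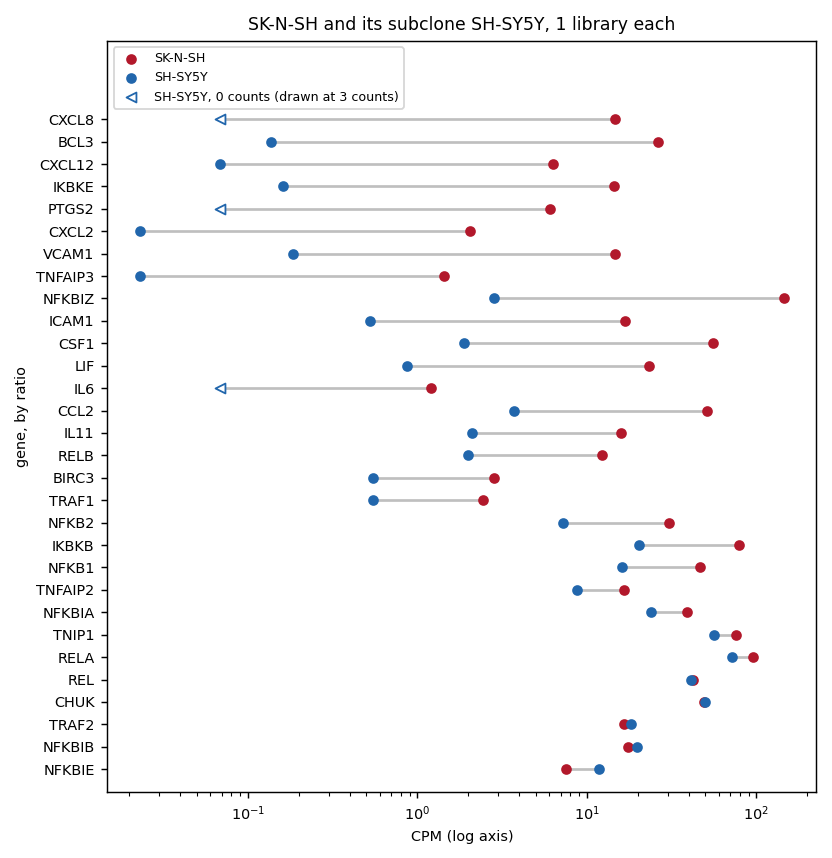
CPM on a log axis of the 30 genes at 1 CPM or more in SK-N-SH (red) or SH-SY5Y (blue), 1 library each, ordered by their ratio; open triangles mark 0 counts in SH-SY5Y, drawn at 3 counts. From CXCL8 at the top down to NFKB2 the red points lie over 4-fold to the right of the blue, and the points of REL and CHUK nearly coincide.

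IMR32 and IMR5-75 gave a different picture. Of 20 genes of the list, 1 was higher in IMR32 past 4-fold (against 5.53% of 15179 genes) and 2 were lower (against 6.92%), shares near the background. TRAF1 was 25.5-fold higher in IMR32, at 4.52 against 0.177 CPM. NFKB2 was 7.20-fold higher in IMR5-75, at 21.9 against 3.04 CPM. VCAM1 had 105 counts in IMR5-75 and 2 in IMR32, a ratio of 46.6 (exact binomial 95% interval 12.6 to 390). The median log2 ratio of the 20 genes was -0.07, against 0.01 over all genes.

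Levels of the genes were also set against each other over the 12 lines, as a description, since the points share their libraries and the 2 high lines weigh on many pairs. The highest Spearman rho was 0.818, between NFKB1 and ICAM1 (Pearson r 0.720), followed by 0.797 between NFKB2 and RELA (r 0.775) and between BIRC3 and CCL2 (r 0.803). NFKBIZ went with CCL2 at a rho of 0.790 and an r of 0.915. REL went against NFKBIB (rho -0.755), TRAF2 (-0.741) and RELB (-0.664), and the lowest rho was -0.853, between TNIP1 and CHUK. REL and CHUK are low in Lan-6 and NFKBIB and TRAF2 are high there, the library with the largest positive GC trend, and LS, with the opposite trend, had the highest REL and the lowest TRAF2 (14.1 CPM). The part of these trends in the correlations was not tested.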

How the data were processed

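Per the labels' protocols, RNA was extracted with TRIzol and sequenced from TruSeq libraries. Per the submitters' processing notes, the genome build was GRCh38 and the tools were DESeq2 1.48.2 and kallisto 0.44.0, with no role stated. Annotation, strand setting and filters were not given in the sources used here. Values in the deposited count table were read as estimated counts (expected counts, whole numbers) with no scaling, which rests on the values alone. The deposited log2 values are called variance-stabilised and served as an alternative. The members and lists were chosen with earlier results of these data known.

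From the counts, CPM and log2 CPM (prior count 2) were derived in edgeR 4.0.16 under R 4.3.3, using TMM factors. Slopes were fitted with edgeR's quasi-likelihood test, adjusted by Benjamini-Hochberg over all genes tested, at 0.05. Genes that make up a score were left out of its scan. The scans were tested on simulated counts. Alternatives used DESeq2 1.42.0, limma 3.58.1, other filters and line sets, and values with a trend on GC content and transcript length removed per library. GENCODE 29 (GRCh38) gave positions and lengths, and 98.7% of symbols matched 1 gene and 85.6% had a coding transcript length. Promoter sequences are RefSeq's. Named genes were all members and, of the other lists, up to 3 of the steepest past each test, and those at 0 counts throughout, though not every gene of these lists is reported here. No pair of the 91 library pairs agreed within sampling noise (smallest chi-square per gene 257).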

Additional observations from a re-analysis of the deposited data

How the results depend on the processing

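With 1 library per line, no level has a replicate check, and counting depth limits genes under about 1 CPM. No paired analysis was possible because the labels give 1 group. For the mesenchymal score, 1055 genes were called with edgeR, 2620 with the DESeq2 Wald test, 614 with subclones in place of the parental lines, 50 without the 2 lines farthest from the median, and, in alternatives chosen after seeing the data, 567 without GI-ME-N and Lan-6 and 538 with MYCN as a covariate. The 7 genes of the list became 3, 1, 3 and 0 in the last 4 of these. Leaving out 1 line at a time gave 407 to 1651 genes and 3 to 8 of the list. For MYCN, 687 genes became 2883 with DESeq2, 348 with limma on the deposited log2 values, 1316 with all 14 lines, 0 with subclones, 1447 without the 2 farthest lines, and, chosen after seeing the data, 200 without GI-ME-N and Lan-6, 1 with the mesenchymal score as a covariate and 0 when both GI-ME-N and SK-N-SH were left out. The 8 genes of the list became 2 with the deposited log2 values, 0 with subclones, 4 with limma on log2 CPM, 1 with the trend removed, 2 without GI-ME-N and Lan-6, and 0 in each of the last 2. Leaving out 1 line gave 4 to 1572 genes and 0 to 11 of the list. For MHC class I, 0 genes became 989 with DESeq2 (7 of the list), 14 without a filter, 16 with all 14 lines, 14 with limma on log2 CPM, 30 without GI-ME-N and Lan-6, and 0 to 20 without 1 line. The slope of LIF on the mesenchymal score turned to -0.20 without the 2 farthest lines, the only reversal among the 15 called slopes. Over the alternatives of these slopes, 203 kept the call and 125 lost it in the same direction. Lan-6 held the peak of 0 genes with the trend removed. Between IMR32 and IMR5-75, a 2-fold limit gave 3 higher and 6 lower, and an 8-fold limit 1 higher and 1 lower. Except where a sentence above names what was left out, the cause was not tested.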
